A study of Mus musculus with 15 samples.

Results

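Microglia of mice with a tamoxifen-inducible deletion of Tgfbr2, the receptor that binds TGF-beta, were compared with microglia of mice without the Cre, all of which received tamoxifen. The 12 arrays were chosen by their labels from the 15 of the series: 6 arrays of tamoxifen-injected Cre/+ mice (Cre/+ TAM) and 6 arrays of tamoxifen-injected mice of genotype wt, which lack the Cre (wt TAM). Each array held the RNA of 1 male mouse, and all 32471 transcript clusters with a gene symbol, of 34390 on the array, were tested.

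Cre/+ TAM mice carried the tamoxifen-inducible recombinase CreERT2 in the Cx3cr1 locus, floxed Tgfbr2 and the R26-yfp reporter. The wt TAM mice were littermates with the same floxed Tgfbr2 and the same reporter. All were C57BL/6 mice, 6 to 8 weeks old at injection, given 8 mg tamoxifen in 200 µl oil 2 times, 48 h apart, and their microglia were sorted 4 weeks later. The 3 remaining arrays held Cre/+ mice of the same alleles given oil without tamoxifen (Cre/+ OIL), and their values are given beside the comparison only where they help to read it. Recombination is limited to cells in which the Cx3cr1 promoter is active, and brain macrophages outside the parenchyma also use it. The labels give a CD11b+/CD45low gate for every group, whereas the study's text describes a YFP+/CD45low gate for Cre/+ TAM and a CD11b+/CD45low gate for wt TAM. If the gates differed they went with the genotype, and gate and genotype cannot be told apart. RNA input was 0.4 to 2.5 ng and was amplified before hybridisation. The median log2 signal lay between 4.36 and 4.55 in the 12 arrays, and Pearson's r between any pair of them, taken over the clusters, was 0.96 to 0.988.

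TGF-beta is secreted in a latent form, and once released it binds the type II receptor TGFBR2, which recruits and phosphorylates the type I receptor. The type I receptor phosphorylates SMAD2 and SMAD3, which enter the nucleus with SMAD4, and a side branch runs through the kinase TAK1 to MAP kinases and NF-kB. In the brain this signal is known for keeping microglia quiescent and for supporting their specific expression programme during maturation. The microglial genes that change when it is removed in adults are the subject of this comparison.

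The targeted gene gave no check of the deletion. Tgfbr2 had log2 signals of 7.91, 8.11 and 8.36 (lowest, median and highest of 6) in Cre/+ TAM, against 7.91, 8.14 and 8.26 in wt TAM. The groups overlapped completely (log2 difference 0.02 ± 0.10, SE, limma adjusted p = 0.989). The cluster averages 24 probes over the gene and which exons they cover was not checked. The study states that recombination removes only the exons for the ligand-binding domain and keeps the reading frame, so a shortened receptor is still expressed. It checked the deletion by sequencing and exon-specific qPCR. By its YFP reporter most, but not all, microglia had recombined. Cx3cr1, the fractalkine receptor whose locus carries the Cre, had 10.74, 11.31 and 11.41 in Cre/+ TAM, against 11.39, 11.71 and 11.82 in wt TAM. In 5 of 6 Cre/+ TAM mice it lay below every wt TAM mouse (log2 difference -0.43 ± 0.12, SE, limma adjusted p = 0.507), and the 3 Cre/+ OIL mice lay at 11.15 to 11.53. The study added control groups to exclude effects of Cx3cr1 haploinsufficiency in Cre/+ mice and of tamoxifen. Between Cre/+ TAM and wt TAM, the Cre allele in Cx3cr1 and the deletion of Tgfbr2 go together and cannot be told apart.

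The cells of both groups carried the microglial signature. The microglia markers P2ry12, Tmem119, Sall1, Fcrls, Olfml3, Siglech, Gpr34, Cx3cr1 and Csf1r had group means far above the median cluster at 4.41, from 8.30 in Tmem119 to 11.32 in P2ry12 in Cre/+ TAM and from 8.20 in Tmem119 to 11.64 in Cx3cr1 in wt TAM. The purinergic receptor gene P2ry12 differed by 0.09, the transcription factor gene Sall1 by -0.08, Tmem119 by 0.10 and the CSF1 receptor gene Csf1r by -0.04 on the log2 scale, and these 4 signs turned under some alternative settings. The 95% confidence intervals of these 4 differences ran from -0.11 to 0.30 for P2ry12, from -0.33 to 0.17 for Sall1, from -0.30 to 0.50 for Tmem119 and from -0.24 to 0.16 for Csf1r. Fcrls differed by 0.19, Olfml3 by 0.30 and Siglech by -0.22, and none of these genes passed the test.

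Across all clusters, 5 rose and 1 fell in Cre/+ TAM at an adjusted p under 0.05 (limma, Benjamini-Hochberg), which is 0.0154% and 0.00308% of the clusters tested. The 5 that rose were Ctla2b, Gm4951, Tnfsf8, Cd52 and C920009B18Rik, and Pde2a fell. The clusters lie at chr13:60895351-60897447 (Ctla2b), chr4:63831308-63861347 (Tnfsf8), chr4:134082448-134095082 (Cd52), chr10:22306720-22312944 (C920009B18Rik) and chr7:101421691-101512829 (Pde2a), and Gm4951 lies on chromosome 18. The sources used here do not state the build of these deposited coordinates, but the clusters of Ctla2b and Pde2a border their RefSeq promoters in GRCm38.p6. In each of the 6 genes every Cre/+ TAM mouse lay on the same side of every wt TAM mouse. In sorted bulk cells, fewer or more cells of a type and less or more RNA per cell cannot be told apart, here and below.

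Ctla2b, which encodes a small protein that resembles the inhibitory propeptide of cysteine proteases, had 7.75, 7.99 and 8.11 in Cre/+ TAM, against 6.39, 6.72 and 7.12 in wt TAM. It rose 2.34-fold (log2 difference 1.23 ± 0.11, SE, adjusted p = 0.000474), and the Cre/+ OIL mice lay at 6.80 to 7.37, below every Cre/+ TAM mouse. Its Cre/+ TAM values spanned the narrowest range of the 6 genes. The largest change of the 6 was in Gm4951, a member of the interferon-inducible GTPases that attack the vacuoles of intracellular parasites, which had 7.63, 8.11 and 8.83 in Cre/+ TAM, against 5.48, 6.13 and 6.72 in wt TAM. It rose 4.41-fold (log2 difference 2.14 ± 0.24, SE, adjusted p = 0.00437). Among the Cre/+ OIL mice it was spread from 4.55 to 7.18. Tnfsf8, the ligand of the receptor CD30, had 4.60, 4.88 and 5.33 in Cre/+ TAM, against 3.58, 3.74 and 4.27 in wt TAM, and rose 2.15-fold (log2 difference 1.10 ± 0.14, SE, adjusted p = 0.00727). All of its values lay within 1 log2 unit of the median cluster at 4.41. These 3 genes were called with each of the 12 mice left out in turn, at adjusted p-values of at most 0.00307, 0.0205 and 0.0372 for Ctla2b, Gm4951 and Tnfsf8.

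Cd52, a short glycoprotein anchored in the membrane of leukocytes, had 7.77, 7.96 and 8.56 in Cre/+ TAM, against 6.74, 7.05 and 7.37 in wt TAM, and rose 2.02-fold (log2 difference 1.02 ± 0.14, SE, adjusted p = 0.0223). C920009B18Rik had 5.49, 5.76 and 6.58 in Cre/+ TAM, against 4.36, 4.74 and 4.89 in wt TAM, and rose 2.19-fold (log2 difference 1.13 ± 0.17, SE, adjusted p = 0.0333). The deposited annotation places C920009B18Rik under the Gene Ontology terms antigen processing and presentation and immune response. The fall was in Pde2a, a phosphodiesterase that hydrolyses cyclic AMP and cyclic GMP. Pde2a had 4.46, 4.68 and 5.23 in Cre/+ TAM, against 5.46, 5.80 and 6.05 in wt TAM (log2 difference -1.03 ± 0.14, SE, adjusted p = 0.0215), and the Cre/+ OIL mice lay at 5.49 to 6.03. The other 17 of 18 cyclic nucleotide phosphodiesterases measured had unadjusted p-values above 0.05. With single mice left out, Cd52 passed in 4, C920009B18Rik in 3 and Pde2a in 5 of 12 fits, with adjusted p-values of at most 0.0851, 0.142 and 0.0818.

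The sequences upstream of 3 of the called genes are printed because SMAD proteins, the effectors of the deleted receptor, bind short sites such as CAGACA. They are the 250 bases before the start site in the RefSeq promoters of build GRCm38.p6, 5′ to 3′ on the strand of the gene, with CAGACA or its reverse complement TGTCTG in capitals: Ctla2b at chr13:60897448-60897697 (minus strand), Tnfsf8 at chr4:63861285-63861534 (minus strand) and Pde2a at chr7:101421441-101421690 (plus strand).
Ctla2b: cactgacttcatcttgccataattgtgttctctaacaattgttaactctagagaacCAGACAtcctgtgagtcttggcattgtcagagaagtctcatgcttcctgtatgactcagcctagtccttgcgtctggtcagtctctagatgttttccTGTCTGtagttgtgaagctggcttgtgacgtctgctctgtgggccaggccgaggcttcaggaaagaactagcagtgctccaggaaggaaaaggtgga
Tnfsf8: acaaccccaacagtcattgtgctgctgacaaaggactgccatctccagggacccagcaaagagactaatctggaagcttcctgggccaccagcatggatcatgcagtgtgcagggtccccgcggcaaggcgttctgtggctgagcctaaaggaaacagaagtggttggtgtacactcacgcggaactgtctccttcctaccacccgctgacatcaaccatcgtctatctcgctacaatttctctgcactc
Pde2a: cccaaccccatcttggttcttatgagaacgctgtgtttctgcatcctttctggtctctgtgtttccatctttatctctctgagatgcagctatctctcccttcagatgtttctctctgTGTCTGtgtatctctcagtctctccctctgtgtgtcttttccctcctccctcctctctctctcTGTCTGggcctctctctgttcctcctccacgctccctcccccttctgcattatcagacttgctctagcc
Ctla2b held 2 matches, 194 and 97 bases before the start site, Pde2a held 2, 132 and 69 bases before it, and Tnfsf8 held 0. With 50 bases after the start site included, 23.6% of 27025 genes with a promoter had at least 1 match on either strand. A match is a description of the letters and no evidence of binding.

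**Figure D1:**
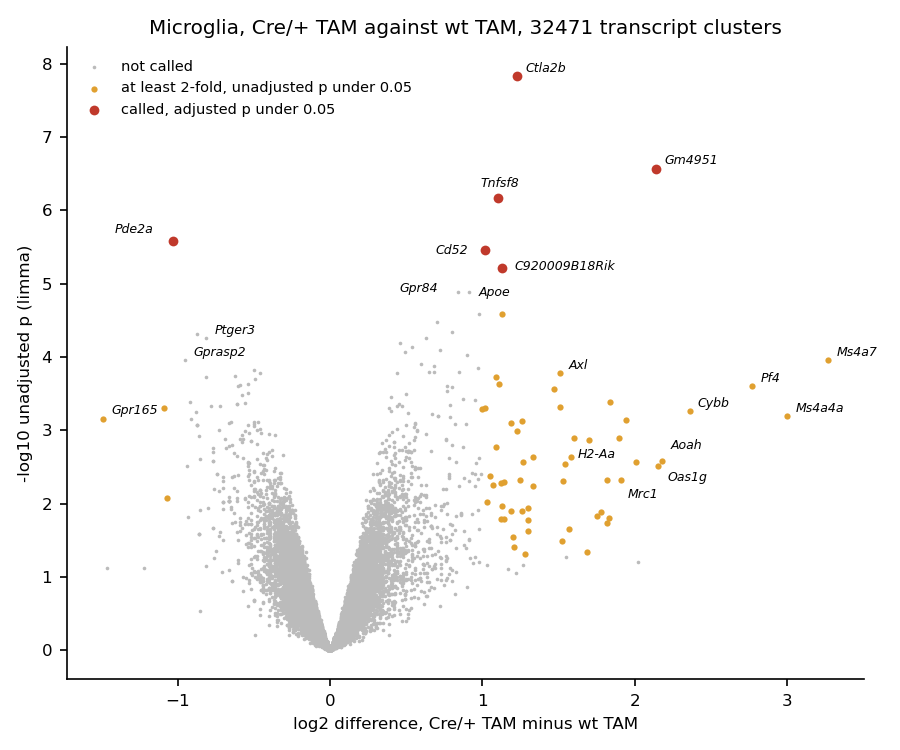
Log2 difference of each transcript cluster (Cre/+ TAM minus wt TAM, n = 6 each) on the x axis against -log10 of the unadjusted limma p on the y axis. The 6 called clusters (red) include Pde2a at -1.03, and 64 clusters, the 6 among them, reached 2-fold at an unadjusted p under 0.05.

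Gpr84 and Apoe lay just outside the threshold, each with an adjusted p of 0.0525. Gpr84, a receptor for medium-chain fatty acids, had 7.35, 7.76 and 8.01 in Cre/+ TAM, against 6.61, 6.88 and 7.16 in wt TAM (log2 difference 0.84), and the Cre/+ OIL mice had 6.67, 7.57 and 7.65, of which 2 lay within the Cre/+ TAM range. Apoe, the lipoprotein that carries cholesterol between brain cells, had 6.25, 6.45 and 7.24 in Cre/+ TAM, against 5.45, 5.62 and 5.83 in wt TAM (log2 difference 0.91), and Cre/+ OIL lay at 5.54 to 5.81. In both genes Cre/+ TAM and wt TAM did not overlap. Over all clusters, every Cre/+ TAM mouse lay above every wt TAM mouse in 103 (0.317%) and below in 48 (0.148%).

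**Figure D2:**
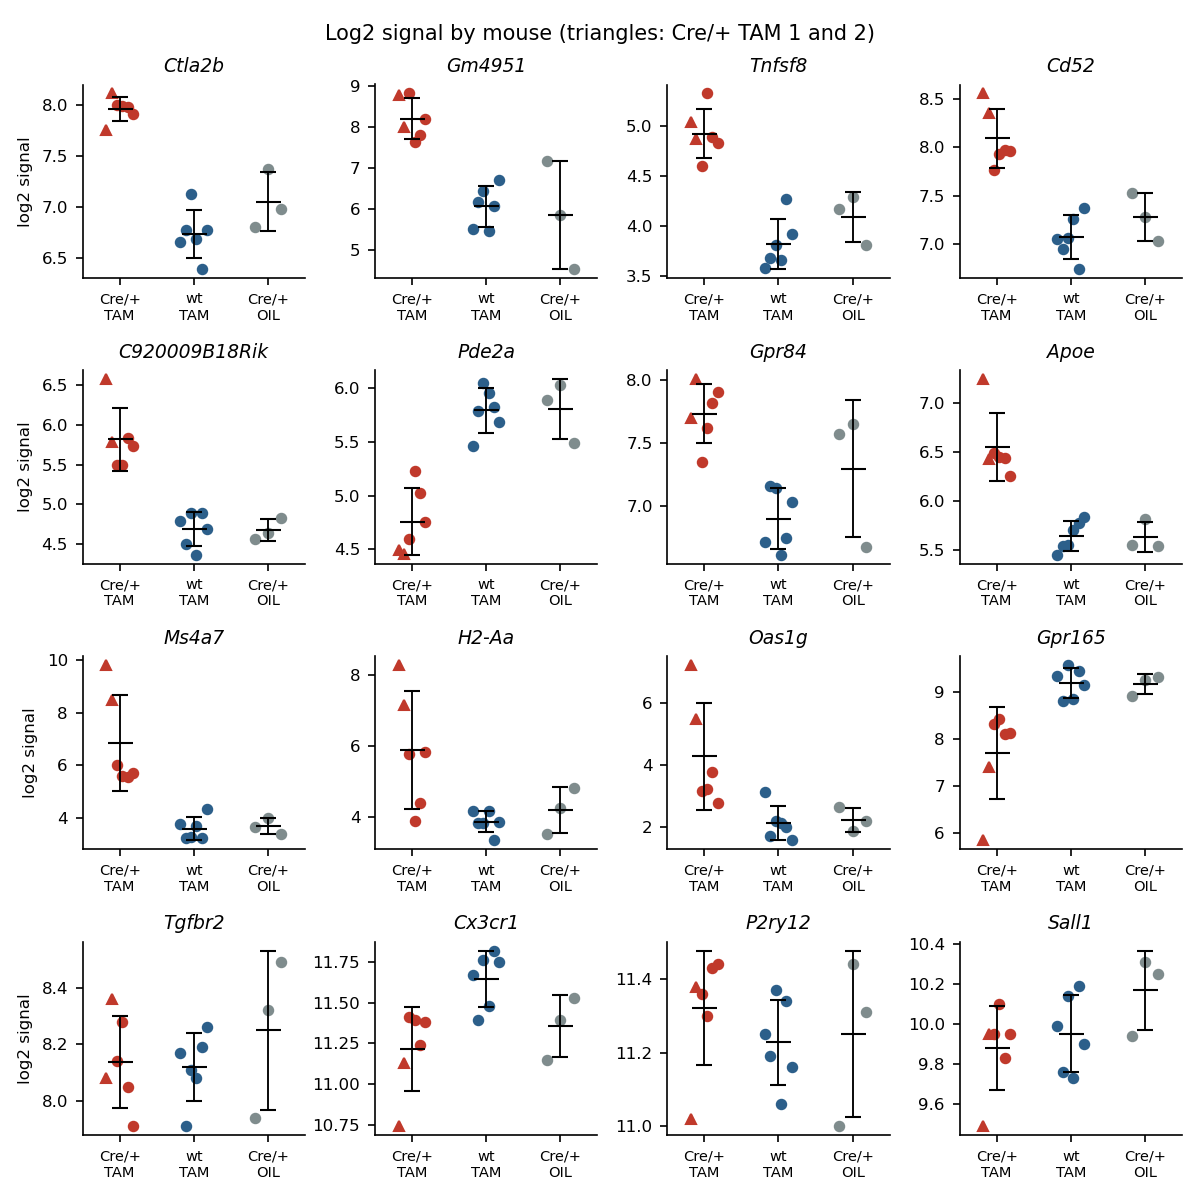
Log2 signal (y axis) of 16 genes in each mouse of Cre/+ TAM (n = 6), wt TAM (n = 6) and Cre/+ OIL (n = 3), with the group mean and SD as bars and triangles for Cre/+ TAM 1 and 2. Ctla2b to Apoe separate Cre/+ TAM from wt TAM in every mouse, whereas in Ms4a7 the triangles at 9.82 and 8.48 stand above the other Cre/+ TAM mice, which reach 6.00.

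Of all clusters, 966 were higher (2.97%) and 1003 lower (3.09%) in Cre/+ TAM at an unadjusted p under 0.05, and after each array was centred on its median the split was 1182 to 720. Among them 60 were higher (0.185%) and 4 lower (0.0123%) by 2-fold or more. The 60 did not have the same size in every mouse. Their mean signal was 8.07 and 7.16 in Cre/+ TAM 1 and 2 and 5.67 to 5.84 in the other 4 Cre/+ TAM mice, against 4.76 to 4.96 in wt TAM and 4.90 to 5.01 in Cre/+ OIL. These clusters were chosen as higher in the same mice, so that the separation of the groups follows from the choice, and within Cre/+ TAM mice 1 and 2 lay above the other 4.

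The last number in each array title was read here as an animal number, though the titles do not name it. These numbers fall into 2 separate ranges. Cre/+ TAM 1 and 2 are the only Cre/+ TAM mice in the lower range, beside wt TAM 1 to 3 and all Cre/+ OIL mice, and the other 4 Cre/+ TAM mice are in the higher range, beside wt TAM 4 to 6. They are called the lower-numbered and the higher-numbered mice below. What the ranges stand for is not stated, and a property of the range cannot be told apart from one of these 2 mice. Among lower-numbered mice the median log2 difference of the 60 clusters was 2.59, and among higher-numbered mice it was 0.81. Of the 60, 59 reached 2-fold among lower-numbered mice and 21 among higher-numbered mice, which describes the clusters and tests nothing, since both sets of mice took part in choosing them. With the range as a block, 25 clusters rose (0.077%) and 6 fell (0.0185%), among them the 6 named above. Within each range alone 0 of the 6 passed among lower-numbered mice (adjusted p = 0.0599 in Cd52 to 0.201 in Ctla2b) and 1 among higher-numbered mice, Ctla2b (0.0142), with 0.323 to 0.448 in the other 5. The further clusters that rose under the block included Gpr84 (adjusted p = 0.0233), Apoe (0.0302), Axl (0.0345), Ms4a7 (0.0247), Pf4 (0.0184), Ifi204 (0.0233), Nlrc5 (0.0233), H2-K1 (0.0247), H2-Q7 (0.0246), Iigp1 (0.0346), Vcam1 (0.0283), Cybb (0.0389), Tnfsf13b (0.0359) and Cdkn1a (0.0302), named here after their values were seen. Further falls included Ptger3 (0.0302) and Gprasp2 (0.0331).

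**Figure D3:**
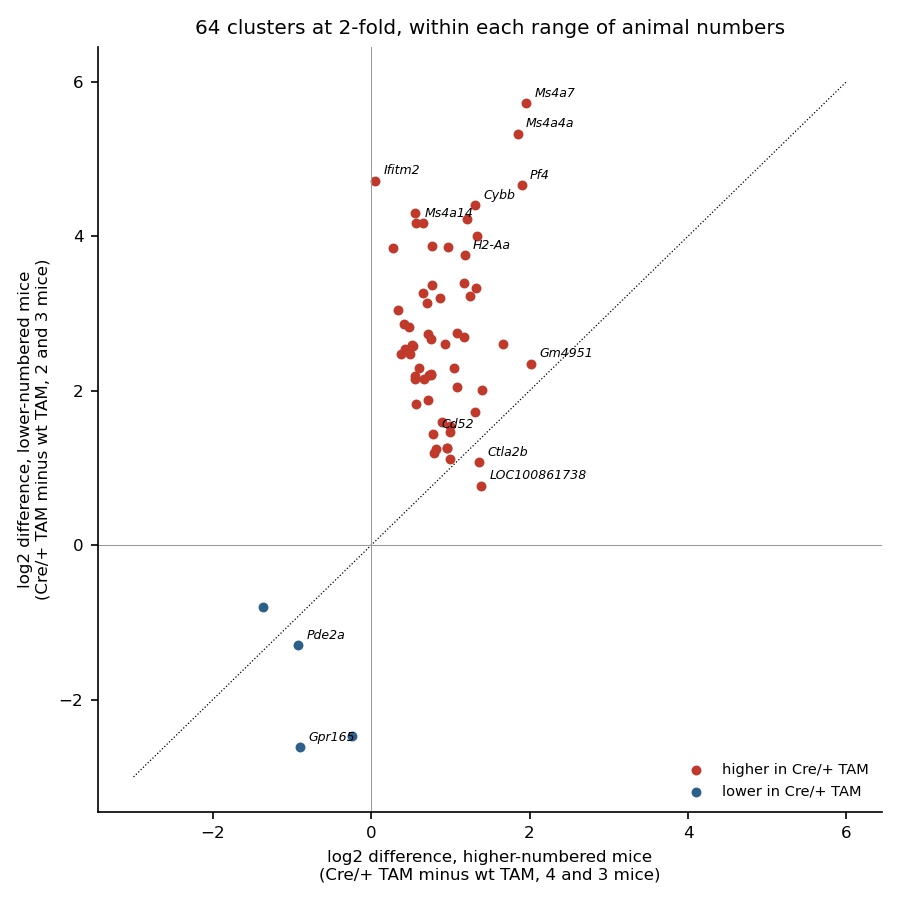
Log2 difference of the 64 clusters at 2-fold within the higher-numbered mice (x axis, 4 Cre/+ TAM and 3 wt TAM mice) and within the lower-numbered mice (y axis, 2 Cre/+ TAM and 3 wt TAM mice), with the line of equality dotted. Of the 60 higher clusters 58 lie above the line, Gm4951 and Ctla2b lie close to it, and Ifitm2 lies at 0.05 and 4.72.

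The difference between the ranges itself passed the test in 19 clusters (interaction term, limma adjusted p under 0.05), and 18 of them were larger among the lower-numbered mice. Mmp13, a collagenase, had 8.93 and 7.43 in Cre/+ TAM 1 and 2 and 2.27 to 2.88 in the other Cre/+ TAM mice, against 2.16 to 2.74 in wt TAM (adjusted p = 9.44e-05 for the interaction). In this gene the 4 other Cre/+ TAM mice did not separate from wt TAM. Ms4a7, by contrast, had 9.82 and 8.48 in Cre/+ TAM 1 and 2 and 5.55 to 6.00 in the others, against 3.23 to 4.36 in wt TAM, so that all 6 lay above every wt TAM mouse (log2 difference 5.72 among lower-numbered and 1.96 among higher-numbered mice). The study names Ms4a7, Ms4a4a, Ms4a14, Cd74, Cd52, Mrc1, Axl, H2-Aa, H2-Ab1, H2-Q5, H2-Q7, Cp, Ccl7, Pf4, Cybb, Aoah, Tnf and Tnfsf8, among others, from these arrays, so their direction here is not independent evidence. For some of the genes described below, the difference without Cre/+ TAM 1 and 2 is given beside them. For others it is given here. In Mrc1 it was 0.91 against 1.91 in all mice, in Aoah 1.10 against 2.18 and in Oas1g 1.11 against 2.15. In H2-Aa it was 1.10 against 2.01, in Cybb 1.37 against 2.36 and in Cdkn1a 0.87 against 1.58. In Tnf it was 0.62 against 1.12 and in Cp 0.60 against 1.19. It changed less in H2-DMb2, at 0.94 against 1.02.

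Many interferon-inducible genes were higher in Cre/+ TAM. In the lists that follow, a gene with several clusters stands with its brightest one, and 2.99% of all 30884 genes were higher and 3.02% lower at an unadjusted p under 0.05, with a median log2 difference of -0.02. Among genes brighter than the median gene, 4.39% were higher and 2.15% lower. Of 17 interferon-inducible GTPases, 8 were higher and 0 lower at that p, and 1 (Gm4951) passed over all clusters. F830016B08Rik, a further GTPase of the family, had 6.10, 6.24 and 7.21 in Cre/+ TAM, against 4.87, 5.31 and 5.60 in wt TAM (log2 difference 1.13, adjusted p = 0.0855). Iigp1, another member, had 4.40, 5.36 and 6.84 in Cre/+ TAM, against 3.21, 3.80 and 4.58 in wt TAM (log2 difference 1.51, adjusted p = 0.246). The clusters of Gm4951, F830016B08Rik and Iigp1 lie beside each other on chromosome 18. The median of the GTPase list was 0.38, 0.36 among lower-numbered mice and 0.32 among higher-numbered mice. Its mean signal was 5.30, 5.53 and 5.78 in Cre/+ TAM, against 4.81, 5.04 and 5.13 in wt TAM. In Cre/+ OIL it ran from 4.83 to 5.42, so that the highest Cre/+ OIL mouse lay within the Cre/+ TAM range.

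Of 53 antiviral interferon-stimulated genes, 27 were higher and 0 lower at an unadjusted p under 0.05, 49 had a log2 difference above 0, and 0 passed over all clusters. Their mean signal was 5.34, 5.41 and 6.50 in Cre/+ TAM, against 5.07, 5.14 and 5.25 in wt TAM and 5.03 to 5.43 in Cre/+ OIL. The Cre/+ TAM and wt TAM mice thus did not overlap, but the highest Cre/+ OIL mouse lay within the Cre/+ TAM range. Lgals3bp, a secreted galectin-binding glycoprotein, had 7.74, 7.82 and 8.73 in Cre/+ TAM, against a median of 7.06 and a highest value of 7.57 in wt TAM (log2 difference 0.85, adjusted p = 0.169). Samd9l, a restriction factor for poxviruses, had 4.30, 4.67 and 5.41 in Cre/+ TAM, against 3.62, 4.03 and 4.23 in wt TAM (log2 difference 0.79, adjusted p = 0.246). Oas1g, an oligoadenylate synthetase gene that acts on viral RNA through RNase L, had 2.76, 3.49 and 7.22 in Cre/+ TAM, against 1.55, 2.05 and 3.13 in wt TAM, with 1 Cre/+ TAM mouse within the wt TAM range (log2 difference 2.15, adjusted p = 0.477). Oas2 differed by 1.54, Oasl2 by 1.07, Ifitm3, which blocks the fusion of viruses with endosomes, by 1.53, Ifi204, a DNA sensor, by 1.33, Isg15, a ubiquitin-like modifier, by 0.44 and Usp18, which removes it, by 0.43. Without Cre/+ TAM 1 and 2 these differences were 0.80 in Oas2, 0.51 in Oasl2, 0.68 in Ifitm3, 0.65 in Ifi204, 0.31 in Isg15 and 0.35 in Usp18. The median of the list was 0.36, 0.65 among lower-numbered mice and 0.20 among higher-numbered mice.

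Promoter windows of 5 interferon-inducible genes are printed to show the element they share. The letters searched were GAAANNGAAA on both strands, the core of the interferon-stimulated response element, with overlapping matches allowed. The windows are 100 bases long, lie upstream of the start site and come from the RefSeq promoters of build GRCm38.p6, 5′ to 3′ on the strand of the gene, with matches (TTTCNNTTTC on the other strand) in capitals: Oas1g at chr5:120887614-120887713 (minus strand), Isg15 at chr4:156200836-156200935 (minus strand), Bst2 at chr8:71537545-71537644 (minus strand), Igtp at chr11:58199456-58199555 (plus strand) and Gbp2 at chr3:142620559-142620658 (plus strand).
Oas1g: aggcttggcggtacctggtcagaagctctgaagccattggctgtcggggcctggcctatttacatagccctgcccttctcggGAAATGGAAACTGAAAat
Isg15: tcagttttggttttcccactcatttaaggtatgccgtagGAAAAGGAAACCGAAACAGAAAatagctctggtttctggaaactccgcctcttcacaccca
Bst2: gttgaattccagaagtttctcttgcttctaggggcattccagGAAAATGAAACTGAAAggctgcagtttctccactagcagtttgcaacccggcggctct
Igtp: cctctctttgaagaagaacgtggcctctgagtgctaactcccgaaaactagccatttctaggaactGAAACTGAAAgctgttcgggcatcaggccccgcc
Gbp2: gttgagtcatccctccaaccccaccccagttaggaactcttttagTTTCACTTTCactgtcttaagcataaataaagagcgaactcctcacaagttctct
Overlapping copies make up the runs in Oas1g (2 matches, beginning 18 and 12 bases before the start site), Isg15 (3, the first 78 bases before it) and Bst2 (2, 130 and 124 bases before it), and Igtp and Gbp2 hold 1 match each, 34 and 59 bases before it. In the whole windows of 250 bases before to 50 after the start site, the element was found in 3.99% of all 27025 genes, in 20 of 39 antiviral genes with a promoter (51.3%) and in 8 of 9 GTPases (88.9%). Within the antiviral list it was found in 9 of 18 genes higher at an unadjusted p under 0.05 and in 11 of 21 others, so the shares were close. Bst2, which tethers budding virions, had 7.43, 7.59 and 8.58 in Cre/+ TAM, against 6.37, 7.15 and 7.58 in wt TAM. Igtp had 6.85, 7.23 and 7.32 in Cre/+ TAM, against 6.13, 6.67 and 7.13 in wt TAM, and Gbp2, a guanylate-binding protein, differed by 0.39. The groups overlapped in these 3 genes.

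Antigen presentation genes were higher on both the class I and the class II side. Of 26 genes of MHC class I and peptide loading, 9 were higher and 0 lower at an unadjusted p under 0.05, and 0 passed over all clusters. H2-K1, a classical class I heavy chain, had 7.29, 7.46 and 8.29 in Cre/+ TAM, against 6.33, 6.68 and 7.19 in wt TAM (log2 difference 0.97, adjusted p = 0.169). H2-M3, which presents formylated peptides, had 6.16, 6.50 and 6.84 in Cre/+ TAM, against 5.71, 5.92 and 6.06 in wt TAM (log2 difference 0.63, adjusted p = 0.121). Nlrc5, the transactivator of class I genes, had 4.85, 5.22 and 5.89 in Cre/+ TAM, against 4.32, 4.51 and 4.73 in wt TAM (log2 difference 0.77, adjusted p = 0.194). In these 3 genes no Cre/+ TAM mouse reached down to the wt TAM range. H2-Q7 differed by 1.11, but its probes could also bind transcripts of related H2-Q genes, so its value is uncertain. Tap1, part of the peptide transporter, differed by 0.41.

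Of 12 class II genes, all had a log2 difference above 0, 6 were higher at an unadjusted p under 0.05 and 0 passed over all clusters. The list mean was 6.11, 6.68 and 7.27 in Cre/+ TAM, against 5.75, 5.89 and 5.96 in wt TAM and 5.74 to 6.29 in Cre/+ OIL. H2-Ab1, the beta chain of I-A, had 6.50, 8.21 and 10.26 in Cre/+ TAM, against 6.13, 6.30 and 6.53 in wt TAM (log2 difference 1.90, adjusted p = 0.349). H2-Aa, its alpha chain, had 3.90, 5.80 and 8.28 in Cre/+ TAM, against 3.35, 3.86 and 4.18 in wt TAM (log2 difference 2.01, adjusted p = 0.452). Cd74, the invariant chain that guides class II molecules, had 6.06, 7.94 and 9.97 in Cre/+ TAM, against 5.45, 5.89 and 7.06 in wt TAM (log2 difference 1.82, adjusted p = 0.553). The Cre/+ TAM mice were thus spread over several log2 units in all 3 genes, while wt TAM stayed within a narrow band in H2-Ab1 and H2-Aa. H2-DMb2, part of the peptide-exchange complex DM, differed by 1.12 among lower-numbered mice and by 1.00 among higher-numbered mice, and H2-DMa, its alpha chain, by 0.80 and 0.35. The window of H2-Aa at chr17:34287824-34287923 (minus strand), GRCm38.p6, is shown with the inverted CCAAT box ATTGG, a part of class II promoters, in capitals.
H2-Aa: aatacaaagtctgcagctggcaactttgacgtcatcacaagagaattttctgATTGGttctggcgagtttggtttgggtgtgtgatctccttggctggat
ATTGG or its reverse complement was found in 8 of 9 class II genes with a promoter, in 13 of 19 class I genes and in 41.1% of all genes.

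Of 31 TNF superfamily ligands and receptors, 4 were higher and 1 lower at an unadjusted p under 0.05 with Tnfsf8 among the 4. Tnfsf13b, the B-cell survival factor BAFF, had 6.82, 7.20 and 7.49 in Cre/+ TAM, against 6.34, 6.48 and 6.72 in wt TAM (log2 difference 0.70, adjusted p = 0.0994), and its difference was 0.62 among lower-numbered and 0.80 among higher-numbered mice. Tnf had 7.15, 7.51 and 8.95 in Cre/+ TAM, against 5.82, 6.78 and 7.44 in wt TAM, and up to 8.52 in Cre/+ OIL (log2 difference 1.12, adjusted p = 0.562). Tnfrsf17, a receptor of BAFF, had 5.91, 6.35 and 6.61 in Cre/+ TAM, against 6.66, 6.76 and 7.10 in wt TAM (log2 difference -0.50, adjusted p = 0.292), with no overlap. Among 29 CC and CXC chemokine ligands, 7 were higher and 2 lower. Pf4, the platelet factor CXCL4, had 6.04, 6.43 and 10.09 in Cre/+ TAM, against 4.05, 4.48 and 5.08 in wt TAM (log2 difference 2.77, adjusted p = 0.194), and all 6 Cre/+ TAM mice lay above wt TAM. Ccl7, a monocyte attractant, had 5.67, 6.00 and 8.74 in Cre/+ TAM, against 5.09, 5.31 and 5.99 in wt TAM, and only 3 of 6 lay above wt TAM. Of 40 interleukins and their receptors, 5 were higher, among them Il2rg, the common gamma chain (log2 difference 1.19), and Il6 (0.58). The CC and CXC chemokine receptors, 24 in all, gave 1 higher and 1 lower.

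The Ms4a family of membrane-spanning proteins, several of them expressed in myeloid cells, gave 6 of 20 higher and 0 lower, with a median of 0.04. Among its members 12 had a log2 difference above 0. Ms4a7 had 5.55, 5.86 and 9.82 in Cre/+ TAM, against 3.23, 3.48 and 4.36 in wt TAM (log2 difference 3.27, adjusted p = 0.164), the largest difference of all clusters with a symbol. Ms4a4a had 3.52, 5.49 and 9.36 in Cre/+ TAM, against 2.50, 2.97 and 3.23 in wt TAM (log2 difference 3.00, adjusted p = 0.277). In both genes all 6 Cre/+ TAM mice lay above wt TAM, and in Cre/+ OIL Ms4a7 lay at 3.41 to 4.00 and Ms4a4a at 2.53 to 2.94. Without Cre/+ TAM 1 and 2 the difference was 2.13 in Ms4a7 and 1.83 in Ms4a4a. Ms4a14 had 2.61, 3.13 and 7.05 in Cre/+ TAM, against 2.13, 2.26 and 2.59 in wt TAM (log2 difference 1.78, adjusted p = 0.672), and its difference was 4.17 among lower-numbered and 0.57 among higher-numbered mice. Of 32 C-type lectins and scavenger receptors, 8 were higher and 0 lower, Mrc1, the mannose receptor, among them with 5.76, 6.62 and 10.26 in Cre/+ TAM, against 5.06, 5.37 and 5.61 in wt TAM (log2 difference 1.91, adjusted p = 0.553).

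Some of these genes also mark border-associated macrophages, which lie in the meninges and around vessels and also express Cx3cr1. Of 18 markers of these cells, 6 were higher and 1 lower at an unadjusted p under 0.05, and 14 in Cre/+ TAM against 10 in wt TAM had a mean above the median cluster. Their mean signal was 5.04, 5.21 and 6.99 in Cre/+ TAM, against 4.72, 4.73 and 4.82 in wt TAM, and the highest value was that of Cre/+ TAM 1. Ms4a7, Pf4, Mrc1 and Apoe did not overlap between the groups. Siglec1, a sialic-acid-binding adhesion receptor, had a log2 difference of 0.79. Cd163, a haemoglobin scavenger receptor, ran from 3.70 to 6.99 in Cre/+ TAM, against 3.66 to 4.04 in wt TAM, whereas Lyve1, a hyaluronan receptor, ran from 4.52 to 5.06 in Cre/+ TAM, against 4.49 to 5.15 in wt TAM. Cbr2 and Cd209f differed by 0.16 and 0.05. The part of these cells in the differences above was not tested. The median log2 difference over the 18 markers was 0.55, with 16 of them above 0, and it was 1.44 among lower-numbered mice, 0.08 among higher-numbered mice and 0.20 without Cre/+ TAM 1 and 2.

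Genes of the Trem2-dependent disease-associated programme, which microglia switch on around amyloid plaques, gave the highest share of all lists, 14 of 27 higher and 0 lower at an unadjusted p under 0.05, with Cd52 called. The list mean was 7.36, 7.48 and 8.21 in Cre/+ TAM, against 7.07, 7.16 and 7.28 in wt TAM, and up to 7.43 in Cre/+ OIL. Axl, a receptor kinase for apoptotic cells, had 6.02, 6.26 and 8.27 in Cre/+ TAM, against 4.97, 5.22 and 5.38 in wt TAM (log2 difference 1.51, adjusted p = 0.169), with no overlap. Itgax, the integrin CD11c, had 4.44, 4.98 and 5.49 in Cre/+ TAM, against 3.93, 4.36 and 4.71 in wt TAM, and 5 of 6 Cre/+ TAM mice lay above wt TAM. Lpl, a lipoprotein lipase, had 5.03, 5.52 and 7.25 in Cre/+ TAM, against 4.68, 4.75 and 5.03 in wt TAM. Clec7a, the beta-glucan receptor Dectin-1, had 5.37, 5.76 and 7.30 in Cre/+ TAM, against 4.32, 5.10 and 5.49 in wt TAM. Lpl and Clec7a both had adjusted p-values of 0.532. Cp, the ferroxidase ceruloplasmin, which the study also names, had 4.64, 4.83 and 7.70 in Cre/+ TAM, against 3.56, 4.21 and 4.61 in wt TAM. The median of the disease-associated list was 0.33, 0.68 among lower-numbered mice and 0.18 among higher-numbered mice.

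Lysosomal and lipid-handling genes were mostly higher. Of 48 lysosomal genes, 46 had a log2 difference above 0 and 12 were higher at an unadjusted p under 0.05, with a median of 0.17. The lysosomal list mean was 8.35, 8.39 and 8.49 in Cre/+ TAM, against 8.04, 8.27 and 8.36 in wt TAM and 8.16 to 8.45 in Cre/+ OIL. Only 3 of 6 Cre/+ TAM mice lay above every wt TAM mouse. The lowest wt TAM means were those of replicates 2 (8.04) and 4 (8.08), and the other wt TAM mice lay at 8.26 to 8.36. Single differences were small: Lipa, the acid lipase, differed by 0.43, Cd68 by 0.33, Hexa, a hexosaminidase subunit, by 0.40, the cathepsin Ctsb by 0.37 and Lamp1 by 0.21. In these 5 genes adjusted p-values ran from 0.645 in Lipa to 0.783 in Lamp1. Of 24 genes of lipoproteins and lipid handling, 7 were higher and 1 lower, with Apoe first. Cholesterol synthesis, with 23 genes, gave 0 higher and 0 lower and a median of 0.00.

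Receptors for immune complexes, complement and bacterial products gave 9 of 27 higher (Fc receptors and phagocytosis), 7 of 22 (complement) and 9 of 27 (Toll-like receptors and sensing of lipopolysaccharide). Tlr2, the receptor for bacterial lipopeptides, had 7.37, 7.61 and 7.78 in Cre/+ TAM, against 6.88, 7.10 and 7.33 in wt TAM (log2 difference 0.47, adjusted p = 0.246), and the groups did not overlap. Aoah, which inactivates lipopolysaccharide by removing its acyl chains, had 4.38, 4.97 and 8.94 in Cre/+ TAM, against 3.43, 3.56 and 4.03 in wt TAM (log2 difference 2.18, adjusted p = 0.452). Fcgr4, a low-expressed Fc receptor, had 5.27, 5.80 and 7.67 in Cre/+ TAM, against 4.72, 5.00 and 5.89 in wt TAM, with only 2 of 6 above wt TAM. The complement component gene C4b differed by 0.96 and C3 by 0.48, while the regulator Cd46 had 4.55, 5.03 and 5.39 in Cre/+ TAM, against 5.16, 5.66 and 5.93 in wt TAM (log2 difference -0.57, adjusted p = 0.43). Cybb, the catalytic subunit of the phagocyte oxidase, had 5.36, 5.60 and 8.88 in Cre/+ TAM, against 3.67, 4.13 and 4.72 in wt TAM (log2 difference 2.36, adjusted p = 0.257). It was the 1 gene of 10 in its complex that was higher at an unadjusted p under 0.05.

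Among 23 leukocyte adhesion genes, 5 were higher and 1 lower. Cd44, the hyaluronan receptor, had 4.10, 4.23 and 4.44 in Cre/+ TAM, against 3.59, 3.71 and 3.93 in wt TAM (log2 difference 0.49, adjusted p = 0.147). Vcam1, a ligand of integrin alpha4, had 5.88, 6.06 and 9.20 in Cre/+ TAM, against 4.53, 4.77 and 5.22 in wt TAM (log2 difference 1.94, adjusted p = 0.292). In both genes all Cre/+ TAM mice lay above wt TAM. Pecam1, an adhesion molecule of endothelium and leukocytes, had 4.59, 5.39 and 5.82 in Cre/+ TAM, against 5.74, 5.98 and 6.39 in wt TAM (log2 difference -0.66, adjusted p = 0.385).

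Proliferation genes were also higher, most of all in Cre/+ TAM 1 and 2. Of 46 genes of the cell cycle and DNA replication, 13 were higher and 0 lower, with medians of 0.44 among lower-numbered mice and 0.07 among higher-numbered mice. Cdk1, the mitotic kinase, had 4.45, 4.86 and 5.34 in Cre/+ TAM, against 3.20, 4.12 and 4.43 in wt TAM (log2 difference 0.89, adjusted p = 0.292). Cdk6, a kinase of the G1 phase, had 7.35, 7.53 and 7.91 in Cre/+ TAM, against 6.70, 6.98 and 7.31 in wt TAM (log2 difference 0.56, adjusted p = 0.292), and it differed by 0.45 among lower-numbered and by 0.72 among higher-numbered mice. In neither gene did the groups overlap. Cdkn1a, the inhibitor p21 and a known target of both SMADs and p53, had 7.42, 7.85 and 9.98 in Cre/+ TAM, against 6.16, 6.67 and 7.89 in wt TAM and up to 8.45 in Cre/+ OIL (log2 difference 1.58, adjusted p = 0.43). Of 24 replication-dependent histones, 5 were higher and 1 lower, and Hist1h1b, a linker histone, differed by 1.70. Of 49 cytosolic ribosomal proteins, 39 had a log2 difference above 0 and 9 were higher at an unadjusted p under 0.05, with a median of 0.13.

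Few components and targets of the TGF-beta pathway itself reached an unadjusted p under 0.05, and 0 passed over all clusters. Of 26 ligands, receptors and activating proteins, 0 were higher and 2 lower (7.69%, against 3.02% of all genes) at that p (Bmpr2, the BMP type II receptor, -0.30, and Lrrc32, which holds latent TGF-beta on the cell surface, -0.21). Of 29 Smads and feedback targets, 4 were higher (13.8%, against 2.99% of all genes) and 0 lower, and the median was -0.06. The 4 were Cdkn1a, the corepressor gene Tgif1 (0.36), Id2, an inhibitor of DNA binding (0.51), and the matrix protein gene Tgfbi (0.22), and their adjusted p-values ran from 0.43 in Cdkn1a to 0.818 in Tgfbi. Of 30 genes of the TAK1 and NF-kB pathway, 0 were higher and 0 lower, with a median of 0.04. Transcript levels do not measure the phosphorylation through which both branches act.

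Of 43 homeostatic microglia genes, 2 were higher and 2 lower at an unadjusted p under 0.05, with a median of 0.03. The lower ones were Cx3cr1, whose locus carries the Cre in Cre/+ TAM only, and Crybb1, a crystallin gene used as a microglial marker. Crybb1 had 6.70, 7.93 and 8.24 in Cre/+ TAM, against 7.78, 8.36 and 8.68 in wt TAM (log2 difference -0.62, adjusted p = 0.71). The higher ones were Olfml3 and P2ry6, a receptor for UDP, which had 9.67, 9.78 and 9.96 in Cre/+ TAM, against 8.26, 9.57 and 9.76 in wt TAM. The list mean was 8.97, 9.41 and 9.46 in Cre/+ TAM, against 9.08, 9.39 and 9.44 in wt TAM, and the lowest of all 12 values was that of Cre/+ TAM 1. The mitochondrial respiratory chain (57 genes) and the proteasome core (28 genes) gave 0 higher and 0 lower, with medians of 0.00 and 0.03.

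**Figure D4:**
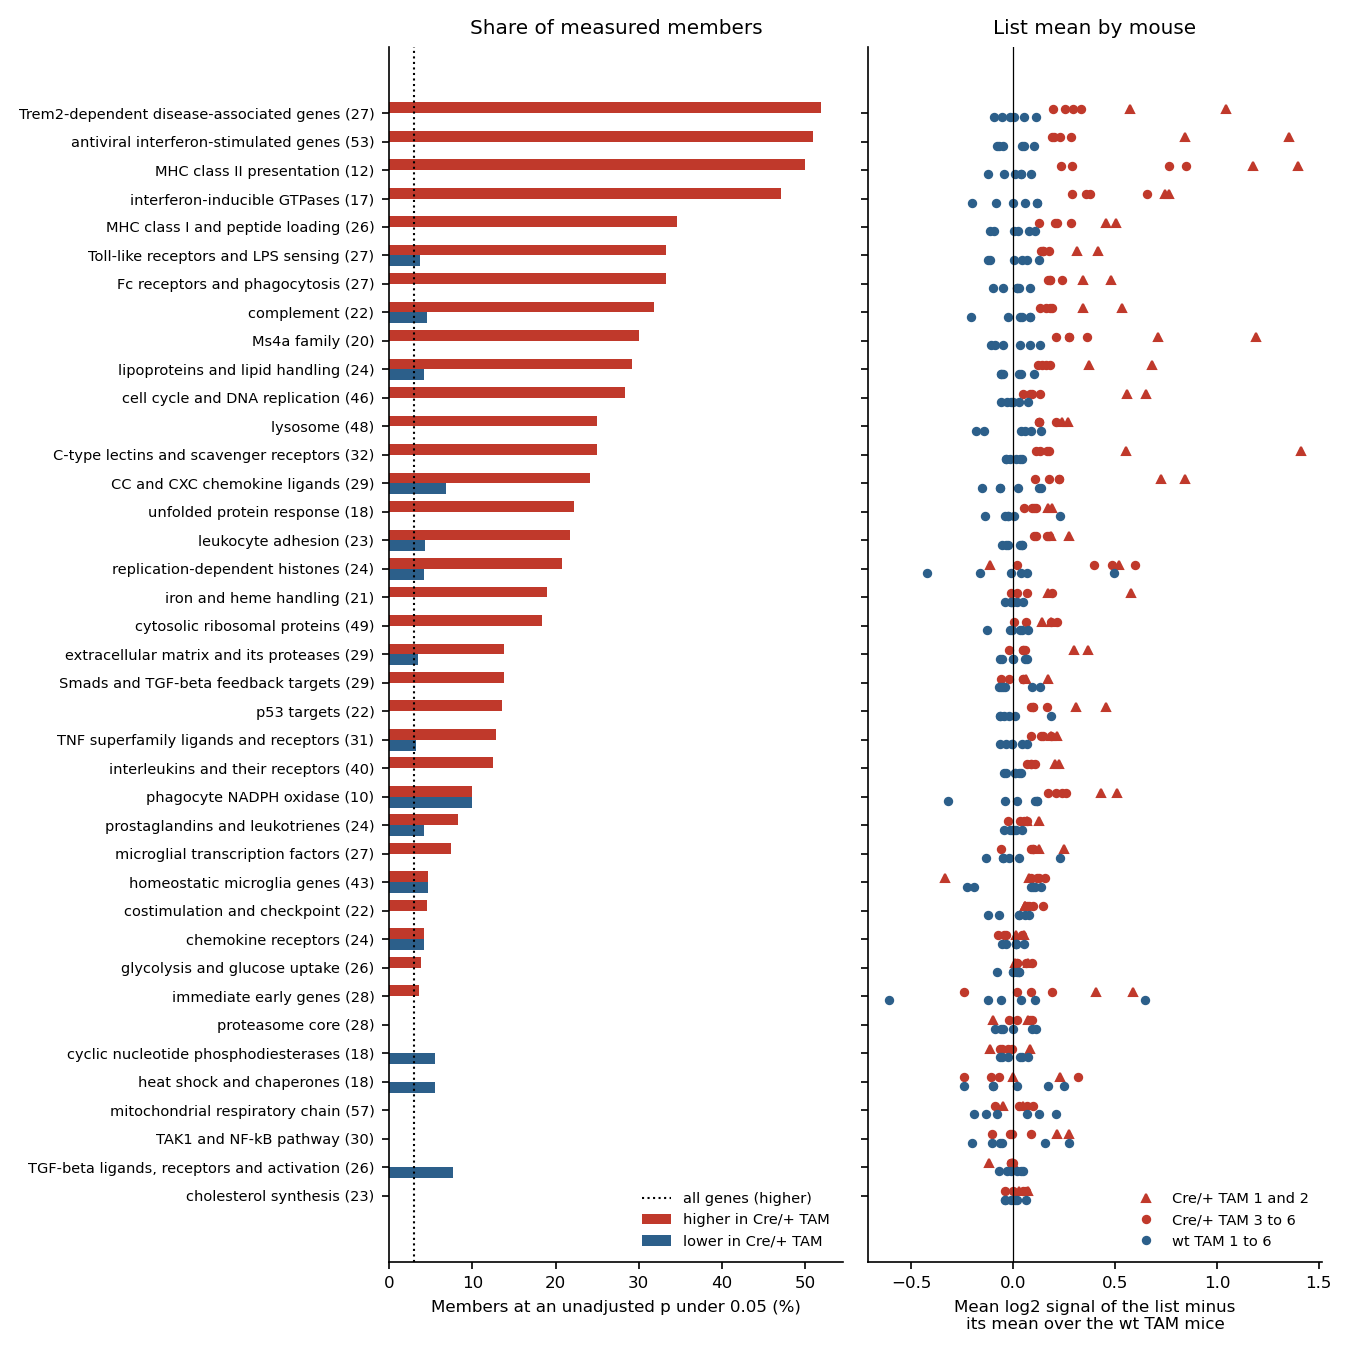
Left, share of the measured members of 39 gene lists at an unadjusted p under 0.05, higher (red) and lower (blue) in Cre/+ TAM, with the share of all genes that were higher (2.99%) as a dotted line. Right, mean log2 signal of each list in each mouse minus its mean over the wt TAM mice, with Cre/+ TAM 1 and 2 as triangles, which lie farthest to the right in most of the upper lists, MHC class II presentation among them.

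Genes that were lower at 2-fold were fewer, and besides Pde2a they were Gpr165, Klrd1 and Igkv4-53, an immunoglobulin segment (log2 difference -1.09). Gpr165, an orphan receptor, had 5.84, 8.11 and 8.43 in Cre/+ TAM, against 8.80, 9.24 and 9.58 in wt TAM (log2 difference -1.49, adjusted p = 0.292). Ptger3, the prostaglandin E receptor EP3, had 3.91, 4.56 and 4.84 in Cre/+ TAM, against 4.94, 5.34 and 5.52 in wt TAM (log2 difference -0.81, adjusted p = 0.121). Gprasp2, which sorts receptors for degradation, had 4.35, 5.33 and 5.54 in Cre/+ TAM, against 5.84, 6.10 and 6.41 in wt TAM (log2 difference -0.95, adjusted p = 0.164). All 6 Cre/+ TAM mice lay below every wt TAM mouse in these 3 genes, and so did 1 of the 3 clusters of Rb1, the retinoblastoma gene (log2 difference -0.87, adjusted p = 0.121). That cluster overlaps Lpar6, and the other 2 clusters of Rb1 differed by -0.05 and 0.04.

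The Gene Ontology terms in the deposited annotation were counted in the same way, and 66 of them were chosen by name. Terms of class II presentation, interferon response and class I led. Presentation of exogenous peptide by MHC class II had 9 of 14 genes higher (64.3%), 2'-5'-oligoadenylate synthetase activity 4 of 11 (36.4%), the cellular response to interferon-beta 9 of 25 (36%, all 25 with a log2 difference above 0), the response to interferon-gamma 8 of 25 (32%) and the MHC class I complex 10 of 40 (25%). The 10 genes of the class I complex term include H2-DMb2, counted above as a class II gene, and H2-Q7, whose value is uncertain. Broader immune terms followed, with defense response to virus at 24 of 136 (17.6%), immune response at 38 of 234 (16.2%) and innate immune response at 35 of 253 (13.8%). Outside immunity, structural constituents of the ribosome gave 27 of 195 (13.8%), the lysosome 35 of 278 (12.6%) and mitotic nuclear division 28 of 266 (10.5%). The TGF-beta receptor signalling pathway gave 3 of 68 (4.41%), close to the share of all genes. Complex I of the respiratory chain gave 0 of 41 and I-kappaB kinase/NF-kappaB signalling 0 of 24. More genes were lower than higher in olfactory receptor activity, at 56 lower and 14 higher of 1101, and in synapse, at 21 lower and 9 higher of 424. The median log2 difference of the olfactory receptors was -0.05, and their median signal was 2.44, below the median cluster at 4.41. Their mean signal was 2.83 in wt TAM 4 and 2.76 in wt TAM 2. It was 2.65 to 2.70 in the other wt TAM mice and 2.64 to 2.70 in Cre/+ TAM. The array of wt TAM 4 also had the highest median log2 signal of the 12, at 4.55. Many terms share genes, so their counts are not independent.

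When the 3383 terms of 10 to 300 measured genes were ordered by their share of higher genes, a choice made by their values, the MHC class II terms stood first. After them came natural killer cell lectin-like receptor binding (5 of 12), vacuole (6 of 15), positive regulation of natural killer cell activation (4 of 10), mast cell activation (4 of 10), immunoglobulin mediated immune response (5 of 13), positive regulation of macrophage activation (5 of 13) and heparan sulfate proteoglycan biosynthesis (6 of 16). By share of lower genes, the first were organisation of inner ear stereocilia (3 of 10), glutamate binding (3 of 13) and prepulse inhibition (3 of 13), each resting on 3 genes.

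**Figure D5:**
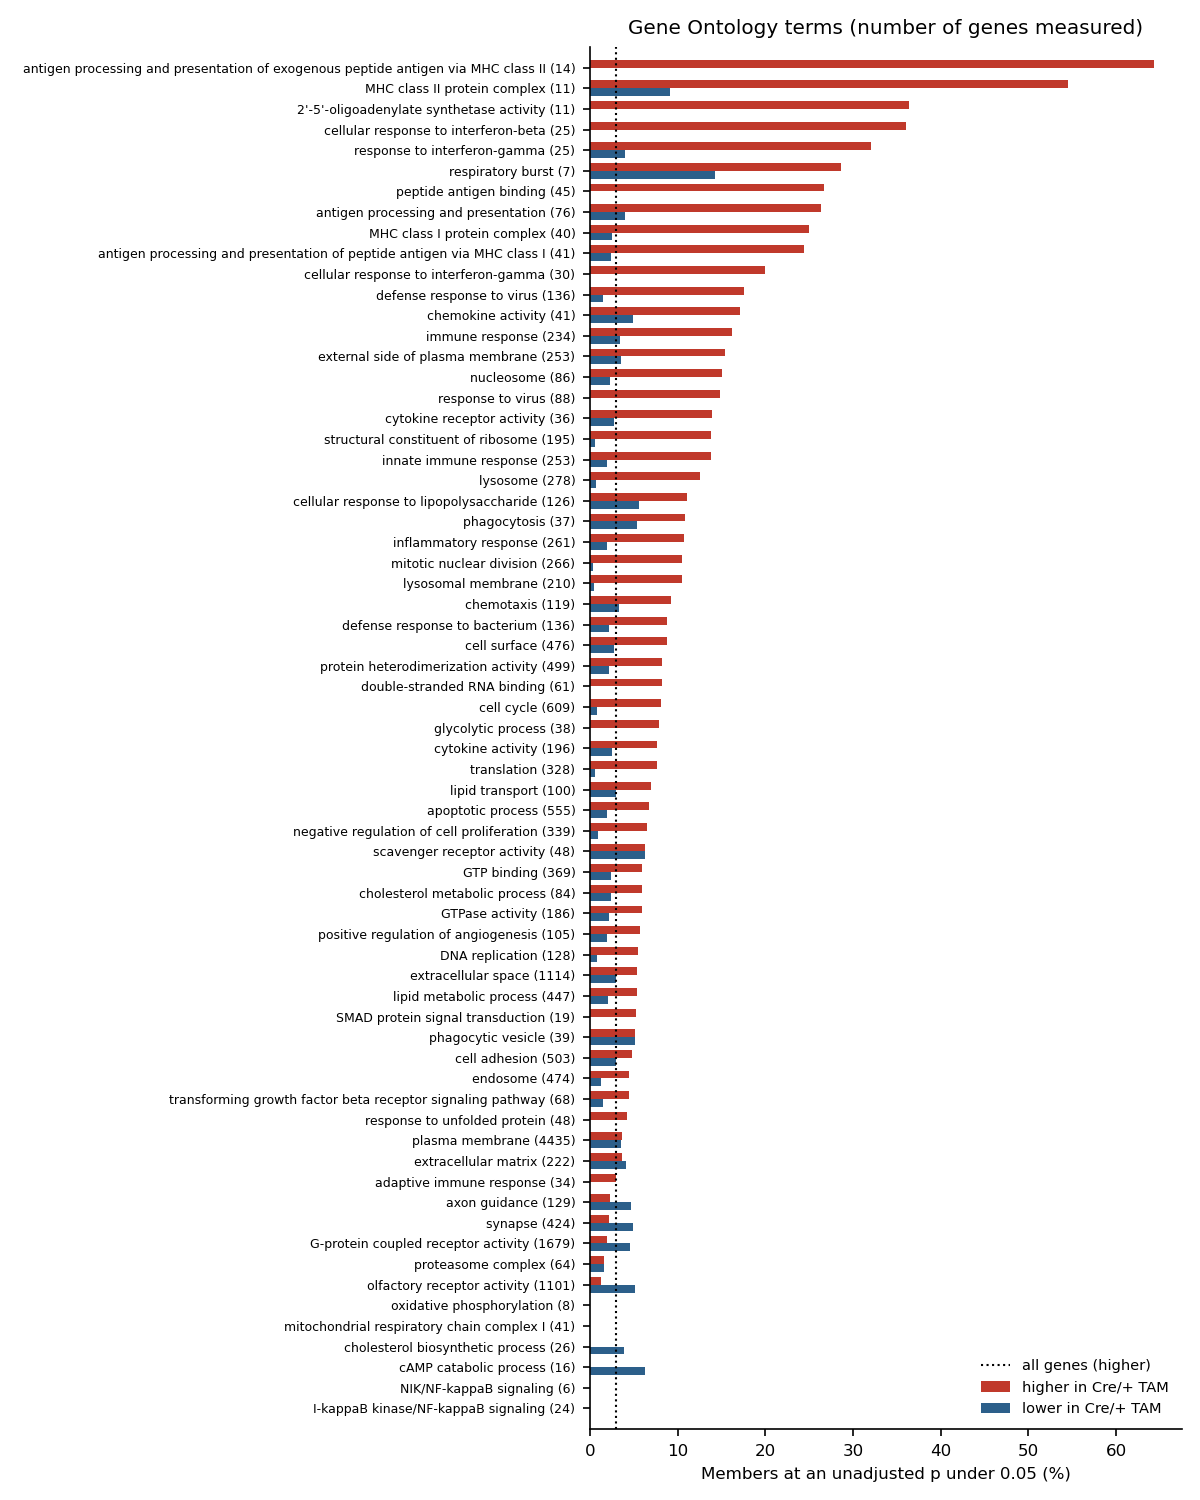
Share of the measured genes of 66 Gene Ontology terms at an unadjusted p under 0.05 (x axis, percent), higher (red) and lower (blue) in Cre/+ TAM against wt TAM, with the number of genes in parentheses and the 2.99% of all genes as a dotted line. Class II presentation leads at 64.3%, and olfactory receptor activity has a longer blue bar than red bar.

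Markers of other cells that a CD45low gate could admit were mostly at low levels in both groups. Of 16 monocyte markers, 6 had a mean above the median cluster in Cre/+ TAM and 6 in wt TAM. At an unadjusted p under 0.05, 2 of the 16 were higher (12.5%, against 2.99% of all genes) and 0 lower. The 2 were Cd44 (log2 difference 0.49, with no overlap) and Itga4 (0.83), while Ccr2 and Ly6c2 differed by -0.02 and -0.25. The median of the list was 0.00, with 8 of the 16 above 0. The neutrophil markers had a list mean of 4.08, 4.20 and 4.36 in Cre/+ TAM, against 4.06, 4.32 and 5.50 in wt TAM. S100a8, a neutrophil alarmin, ran from 2.28 to 2.75 in Cre/+ TAM, against 2.11 to 8.22 in wt TAM and up to 8.55 in Cre/+ OIL. All 10 astrocyte markers had a log2 difference below 0, 2 of them at an unadjusted p under 0.05 (Gfap -0.29 and Slc1a3 -0.53). Their list mean was 4.32, 4.48 and 4.62 in Cre/+ TAM, against 4.60, 4.68 and 4.76 in wt TAM. In Cre/+ OIL it was 4.44 to 4.60, within the Cre/+ TAM range. Of 19 T and NK cell markers, 0 were higher and 2 lower (10.5%, against 3.02% of all genes) at that p. Their median log2 difference was 0.02, with 11 above 0. The 2 were Cd8a (-0.36) and Klrd1, a receptor of natural killer cells. Klrd1 had 3.35, 5.07 and 5.45 in Cre/+ TAM, against 4.91, 5.77 and 6.51 in wt TAM (log2 difference -1.07, adjusted p = 0.651). It differed by -2.47 among lower-numbered and by -0.24 among higher-numbered mice. Whether traces of astrocyte, monocyte, neutrophil or lymphocyte RNA took part in any difference was not tested.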

How the data were processed

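RNA of sorted microglia was hybridised to Affymetrix Mouse Gene 2.0 ST arrays, 1 mouse per array, and the authors deposited RMA-normalised log2 signals per transcript cluster, so the values are relative and hold no counts or depth. No source used here names the software settings or the build. The paper's results text speaks of RNA sequencing, whereas its methods and labels describe arrays. Columns with the authors' own fold changes and p-values were not used. A second deposited table of 41345 probe sets held the same log2 signals within 0.005 for the shared rows and served as an alternative.

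Groups came from the genotype and injection labels. The difference of Cre/+ TAM minus wt TAM was fitted over 12 arrays with limma 3.58.1 (lmFit and eBayes, R 4.3.3), with Benjamini-Hochberg adjustment over the 32471 clusters with a symbol, and summarised with Python 3.11.15 (pandas 2.3.3, numpy 2.4.6). No filter on low values was applied. Where several clusters share a gene, the brightest stands for it. On simulated data 200 of 32471 clusters were changed, and 9 of 170 calls were false. The fit called 84% of those changed by 1 log2 unit and 38% of those changed by 0.5. The simulated spread was the same in both groups, whereas in Ms4a7 the SD was 1.83 in Cre/+ TAM and 0.45 in wt TAM. The simulation also had 170 calls, against 6 here, which makes its adjusted threshold easier to reach. Its shares therefore do not give the sensitivity in these data.

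The genes named were those called, 20 higher and 10 lower at 2-fold, up to 4 per list, those the study names, Tgfbr2 and Cx3cr1, and 10 in each direction that did not overlap. Other genes named were chosen after their values were seen. Members and lists were chosen with earlier results of these data known. Of 1134 genes in the lists, 835 matched a RefSeq promoter. Term names that had been replaced in the table for 3103 clusters were taken from their identifiers. The number of arrays limits the precision.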

Additional observations from a re-analysis of the deposited data

Results flagged for a closer look

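Of 352 groups of 6 mice looked at, 38 had a mouse set apart from the others of its group beyond Dixon's 95% critical value. For independent groups chosen without their values, 1 in 20 would be about 18. Most groups here were of named genes, some of them chosen by their values, and genes of the same mouse can move together. The 38 against 18 is therefore no test of chance. In Cre/+ TAM 1 the values that stood apart were C920009B18Rik at 6.58, Apoe at 7.24, F830016B08Rik at 7.21, Bst2 at 8.58, Lpl at 7.25, Clec7a at 7.30, Ctsb at 10.80, Siglec1 at 7.10, Cd163 at 6.99 and Cp at 7.70 on the high side. On the low side of the same mouse they were P2ry12 at 11.02, Csf1r at 11.01 and Pecam1 at 4.59. Its list means were low for homeostatic microglia genes (8.97), TGF-beta ligands and receptors (6.01) and microglia markers (9.88). They were high for C-type lectins (6.10), iron and heme handling (6.72), border-associated macrophage markers (6.99) and monocyte markers (4.44). Cre/+ TAM 2 stood apart in Tgif1 at 7.05, and Cre/+ TAM 4 in Il6 at 7.37.

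Among wt TAM mice, replicate 2 was low in H2-DMa (7.18), P2ry6 (8.26) and the means of the NADPH oxidase (6.60) and of glycolysis (5.89), and high in the mean of neutrophil markers (5.50). Replicate 4 was high in Ms4a14 (2.59) and in the means of border-associated macrophage (4.82), neuron (4.23) and endothelial markers (4.35), and low in Lipa (7.28). Replicate 6 was high in Tnfrsf17 (7.10) and Fcgr4 (5.89), and replicate 1 in the means of p53 targets (5.90) and of the unfolded protein response (7.82). Replicate 1 was also low in Ifitm2 (2.83), and replicate 3 in Cd300ld (3.34).

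The log2 difference between Cre/+ TAM and wt TAM differed between the lower-numbered and the higher-numbered mice in 19 clusters (limma interaction, adjusted p of at most 0.0471). It was larger among the lower-numbered mice by 5.93 in Mmp13, 4.67 in Ifitm2, 4.08 in Mndal, 3.76 in Ms4a7, 3.75 in Cd300ld, 3.61 in Ms4a14, 3.33 in Emr4, 3.10 in AI607873, 3.09 in Cybb, 3.02 in Gp49a, 2.71 in Tnfsf18, 2.62 in Slamf7, 2.61 in Ifitm3, 2.38 in Scimp, 2.36 in Ccl7, 1.38 in Zbp1, 1.28 in Slfn2 and 1.24 in Wee1. In Csmd3 the difference between the ranges was -1.37, with 6.77 and 7.23 in Cre/+ TAM 1 and 2 and 7.77 to 7.99 in the other Cre/+ TAM mice, against 7.91 to 8.58 in wt TAM. The lower range holds only 2 Cre/+ TAM mice, and their part in these values cannot be told apart from that of the range.

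Of 6955 probe sets found only in the second deposited table, 8 passed over its 41345 probe sets, and none has a gene name in the files. An identical group of 3 had 9.34 to 9.67 in Cre/+ TAM, against 5.42 to 6.13 in wt TAM and 5.81 to 6.09 in Cre/+ OIL (log2 difference 3.73, limma adjusted p = 3.49e-09). The others that were higher had log2 differences of 3.20, 3.17, 2.37 and 1.44. For 2.37 the Cre/+ TAM values were 5.67 to 6.91, against 2.61 to 4.82 in wt TAM, and Cre/+ OIL lay at 6.45 to 6.73, within the Cre/+ TAM range. For 1.44 they were 6.23 to 6.91, against 4.89 to 5.53 in wt TAM, and Cre/+ OIL again lay within the Cre/+ TAM range, at 6.64 to 6.76. The 1 that was lower had 5.11 to 5.92 in Cre/+ TAM, against 6.20 to 7.84 in wt TAM (log2 difference -1.65). What these probe sets measure was not tested.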

How the results depend on the processing

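The 6 called genes kept their direction under every alternative tried, and of 155 values of theirs 41 no longer passed the threshold. The 5 higher and 1 lower calls became 25 and 6 with the animal number range as a block, 10 and 0 among lower-numbered mice, 3 and 0 among higher-numbered mice, 14 and 0 without Cre/+ TAM 1 and 2, 9 and 1 among clusters above the median signal and 1 and 0 by the methods' t-test after adjustment. Of the 6 called genes, 0 were among the 10 calls in lower-numbered mice. Only 1, Ctla2b, was among the 3 calls in higher-numbered mice, where Gm4951 had an adjusted p of 0.323 and Tnfsf8 0.423, and it was the 1 call of the t-test. Before adjustment the methods' t-test gave 907 higher and 965 lower clusters at its threshold of 0.05. Leaving out single mice gave 3 to 9 higher and 0 to 1 lower calls. Cd52, C920009B18Rik and Pde2a no longer passed without Cre/+ TAM 2 (adjusted p = 0.0849, 0.105 and 0.0777), without wt TAM 2 (0.0818, 0.117 and 0.0818), without wt TAM 4 (0.0586, 0.142 and 0.0816), without wt TAM 3 (0.0647 each), without wt TAM 5 (0.0568 each) and without Cre/+ TAM 6 (0.0546, 0.0768 and 0.0546). Cd52 and C920009B18Rik also did not pass without wt TAM 1 (0.0851 and 0.0905) and without Cre/+ TAM 5 (0.058 and 0.104), C920009B18Rik without wt TAM 6 (0.0692), and Pde2a without Cre/+ TAM 3 (0.0564) and without Cre/+ TAM 1 and 2 (0.0699). The 60 higher clusters at 2-fold became 276 among lower-numbered mice, 25 among higher-numbered mice, 27 without Cre/+ TAM 1 and 2, and 39 to 80 without single mice. The 4 lower ones became 68, 11, and 2 with array weights, and 2 to 9 without single mice. Clusters lower at an unadjusted p under 0.05 numbered 374 of those above the median signal, against 1003. That setting tests fewer clusters. Centring each array on its median gave 1182 higher and 720 lower, against 966 and 1003. Clusters with every Cre/+ TAM mouse above every wt TAM mouse became 3277, 788 and 197 among lower-numbered mice, among higher-numbered mice and without Cre/+ TAM 1 and 2, against 103, and 124 to 182 without single mice. Those below became 4201, 946 and 143, against 48, 23 among bright clusters and 73 to 126 without single mice. Fewer mice make such separation easier. The other causes were not tested.

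Signs turned in some genes that differed between the ranges. Emr4, 0.50 in all mice, was -0.68 among higher-numbered mice, -0.49 without Cre/+ TAM 1 and 2 and -0.07 to 0.72 without single mice. Gp49a (0.82) was -0.18 among higher-numbered mice and -0.22 without Cre/+ TAM 1 and 2, Cd300ld (1.22) was -0.04 and -0.01, Slamf7 (0.78) was -0.16 among higher-numbered mice, and Wee1 (0.47) was -0.03 without Cre/+ TAM 1 and 2. The other signs that turned belonged to differences near 0. Tgfbr2 was -0.08 among higher-numbered mice, -0.03 without Cre/+ TAM 2, without wt TAM 2, without Cre/+ TAM 1 and 2 and after quantile normalisation, and -0.01 without Cre/+ TAM 4 and with array weights. P2ry12 was -0.07 among lower-numbered mice and Tmem119 -0.06 without wt TAM 2. Sall1 was 0.01 among higher-numbered mice and 0.00 without Cre/+ TAM 1 and without Cre/+ TAM 1 and 2, where Csf1r was 0.06, 0.01 and 0.03. Without single mice Tmem119 ranged from -0.06 to 0.18 and Sall1 from -0.12 to 0.00. Lyve1 was 0.13 among lower-numbered mice, 0.02 after median centring, 0.00 with the animal number range as a block and with array weights, and -0.07 to 0.07 without single mice. Ccr2 was 0.20 among lower-numbered mice, 0.02 after quantile normalisation and with array weights, 0.01 after median centring, and -0.08 to 0.07 without single mice. The representative cluster of Rb1 was 0.11 among higher-numbered mice, 0.12 without Cre/+ TAM 1 and 2, 0.00 with array weights, and -0.13 to 0.04 without single mice. Cd209f ranged from -0.01 to 0.12 without single mice. No paired analysis was possible because the replicate numbers only name the mice in accession order.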
